A study of Mus musculus with 18 samples.

Results

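The proteins of the mitochondrial respiratory chain that are encoded in the nucleus were followed as a group of 72 genes among the 26143 genes of the table. The genes were chosen by symbol: Nduf followed by a, b, c, s or v and a number, Sdha to Sdhd, symbols that begin with Uqcr, Cox4 to Cox8, and Cycs. 1 symbol marked as a pseudogene with -ps was left out. By these symbols 41 genes belonged to complex I, 4 to complex II, 8 to complex III and 18 to complex IV, and Cycs encodes cytochrome c. No measured value entered the choice.

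RNA was sequenced from mouse squamous epithelium, as the labels name it, in a study of head and neck tumours started by the carcinogen 4NQO. WT is wild type esophagus (3 libraries). The other groups are tongue. p53 is heterozygous for LSL-p53+/R172H (3 libraries), E20 carries LSL-PIK3CAH1047R (6 libraries), and E20/p53 carries LSL-PIK3CAH1047R, LSL-p53+/R172H and K14-Cre (6 libraries). LSL stands for a stop element between loxP sites that keeps an allele silent until Cre removes it, and K14-Cre drives Cre from a promoter of basal keratinocytes. The labels name a Cre for E20/p53 alone, and age, sex and the 4NQO treatment of each library have no entry in the labels used here. Xist was high in E20 alone, and Eif2s3y of the Y chromosome in p53 and E20/p53 alone, so sex may differ between groups. WT differs from every other group in organ as well as genotype, so that organ and genotype cannot be told apart in any comparison with WT. Nothing states that libraries came from separate animals or cultures, and p-values then measure only the spread between libraries, which may be technical.

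The respiratory chain passes electrons from NADH through complex I, or from succinate through complex II, to coenzyme Q, and from there through complex III, cytochrome c and complex IV to oxygen. Complexes I, III and IV pump protons as they do so, and ATP synthase uses the gradient. Epithelial cells and tumours take part of their ATP from this chain and part from glycolysis. Cytochrome b of complex III, the catalytic subunits of complex IV and several core subunits of complex I are encoded in mitochondrial DNA and were not analysed here.

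Libraries held 14592044 to 18176060 counted reads. Levels are given in CPM, reads scaled to the library total that the deposited log2 values imply, as mean ± SD (n = 3 for WT, p53 and each run). The libraries of E20 and of E20/p53 fell by replicate number into runs of 3, 1 to 3 and 4 to 6, and runs are described but were not tested, since they are not groups of the labels. Replicate 3 of p53 stood apart: the ribosomal precursor Rn45s was at 34841 CPM and Lars2 at 7239 CPM in it, against at most 4984 and 1518 CPM in the other libraries. Without it 32 members were called higher and 4 lower in p53 against WT, 2 higher and 3 lower in E20 against p53, and 0 higher and 12 lower in E20/p53 against p53. The 6 basal keratinocyte markers summed to 842 ± 12.1 CPM in E20/p53 1 to 3, 103 ± 9.29 in E20 1 to 3, 99.0 ± 3.23 in WT and at most 10.4 ± 0.108 elsewhere. Members of that list differed in order: Krt5 was at 127 ± 8.78 CPM in E20/p53 1 to 3 and at most 0.0784 ± 0.068 in WT, p53, E20 4 to 6 and E20/p53 4 to 6, while Krt15 and Col17a1 were highest in WT, at 5.91 ± 0.989 CPM for Krt15, and were called lower in each tongue group. The 4 markers of simple epithelium summed to 276 ± 9.18 CPM in WT, mostly Krt18 and Krt8, and to at most 10.1 ± 0.206 elsewhere, and Krt8 and Krt18 were called lower in each tongue group. The 6 fibroblast markers summed to 86.0 ± 2.22 CPM in E20/p53 1 to 3 and to 1450 ± 68.4 in WT, against 6814 ± 377 in p53 and more in the other runs. Markers of cell types therefore moved with the groups, and their part in the results was not tested. In bulk RNA, fewer cells of a type and less RNA per cell cannot be told apart.

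Of the 72 genes, 66 passed the filter on low values among 15235 genes tested. Cox4i2, Cox6b2, Cox7b2, Cox8b, Cox8c and Uqcr11 did not pass. Uqcr11, a small subunit of complex III, held 5 reads over all 18 libraries, and Cox8c, a testis isoform of complex IV, held 0. Per kilobase of transcript, Cox4i1 stood highest, with a mean of 530 CPM per kb over libraries, followed by Ndufa4 at 503, Cox6b1 at 387 and Uqcrh at 370. Sdhd, a membrane anchor of complex II, was at 4.01 CPM per kb, and Cycs was at 13.1. The highest genes encode subunits of complexes III and IV, together with Ndufa4, whose symbol places it in complex I although its protein is now assigned to complex IV.

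Promoter windows of the members were searched for motifs of 3 regulators of nuclear mitochondrial genes, since members that moved most against WT could then be shown beside each other. RefSeq, on GRCm38.p6, which is the build mm10, listed promoters for 55 of the 72 genes, 57 windows in all, each from 250 bases before to 50 bases after the start. The motif of nuclear respiratory factor 1, searched as GCGCA, any base and then GCGC, was found on either strand in 12 of the 57 windows (21.1%) and in 4.60% of all 32851 windows. CCGGAAGT, the motif of the ETS family that includes GABP, was found in 7.02% of the members' windows and in 3.89% of all. AANATGGCG, the motif of YY1, was found in 12.3% of the members' windows and in 2.38% of all. The members' windows were also richer in CpG, with a median of 19 against 7 and a median GC content of 57.3% against 52.7%, and matches were not weighed for this. The sequences below are the 250 bases before the start, 5′ to 3′ on the strand of the gene, of Cycs (chr6:50566570-50566819, minus strand) and Ndufb4 (chr16:37654369-37654618, minus strand), which rose against WT in each tongue group, and of Cox7a2l (chr17:83514334-83514583, minus strand) and Ndufa7 (chr17:33824395-33824644, plus strand, the second of 2 listed starts), which fell in each. Capitals mark motif matches.
Cycs: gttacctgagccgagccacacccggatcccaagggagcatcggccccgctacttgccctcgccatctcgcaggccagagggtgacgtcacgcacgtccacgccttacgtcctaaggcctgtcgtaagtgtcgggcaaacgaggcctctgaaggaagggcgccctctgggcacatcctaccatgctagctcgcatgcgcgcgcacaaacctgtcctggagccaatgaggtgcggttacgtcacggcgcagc
Ndufb4: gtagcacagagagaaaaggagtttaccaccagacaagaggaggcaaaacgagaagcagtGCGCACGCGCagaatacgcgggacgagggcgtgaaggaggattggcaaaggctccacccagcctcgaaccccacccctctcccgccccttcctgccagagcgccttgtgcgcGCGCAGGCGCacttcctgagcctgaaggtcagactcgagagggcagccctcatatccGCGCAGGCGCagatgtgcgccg
Cox7a2l: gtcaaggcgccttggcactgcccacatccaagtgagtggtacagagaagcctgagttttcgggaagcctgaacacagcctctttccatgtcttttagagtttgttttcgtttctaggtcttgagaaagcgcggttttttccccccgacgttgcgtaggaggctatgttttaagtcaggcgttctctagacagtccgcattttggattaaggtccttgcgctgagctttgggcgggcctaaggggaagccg
Ndufa7: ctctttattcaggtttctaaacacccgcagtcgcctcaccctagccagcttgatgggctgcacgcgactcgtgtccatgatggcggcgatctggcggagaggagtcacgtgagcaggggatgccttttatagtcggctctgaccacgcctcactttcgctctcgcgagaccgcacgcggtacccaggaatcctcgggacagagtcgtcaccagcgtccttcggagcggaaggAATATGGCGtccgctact
Ndufb4 held 3 matches to the nuclear respiratory factor 1 motif and Ndufa7 held 1 to the YY1 motif. The 250 bases before the first listed start of Ndufa7 (chr17:33824322-33824571), not printed, held 0 matches. The annotated start of Ndufa7, at 33824572, lies before the marked match. Cycs and Cox7a2l held no exact match, which says only that those letters are not in these windows.

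Summed over all 72 genes in CPM, respiratory chain RNA was lowest in WT and in E20/p53 1 to 3, and highest in E20. The sum was 5632 ± 135 CPM in WT and 6391 ± 285 in p53, then 6801 ± 288 for E20 1 to 3 and 7051 ± 63.8 in E20 4 to 6. It was 5543 ± 59.0 in E20/p53 1 to 3 and 6377 ± 197 in E20/p53 4 to 6. As a share of all counted reads the genes made up 0.608% ± 0.0221 in WT and 0.625% ± 0.0351 in p53 (n = 3), with 0.665% ± 0.0126 for E20 and 0.617% ± 0.0116 for E20/p53 (n = 6), so the spread between groups is narrower on that scale. The complexes did not move alike. Complex III was at 789 ± 19.2 CPM in WT and between 979 ± 32.8 and 1049 ± 3.54 in p53, both runs of E20 and E20/p53 4 to 6, and at 820 ± 3.27 in E20/p53 1 to 3. Complex II was at 723 ± 10.5 CPM in E20 4 to 6 and between 506 ± 5.15 and 600 ± 20.8 in the other runs. Complex IV was at 1903 ± 71.0 CPM in E20 1 to 3 and at 1414 ± 18.8 in E20/p53 1 to 3, below the 1607 ± 36.5 of WT. Sums over members were not tested.

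**Figure D1:**
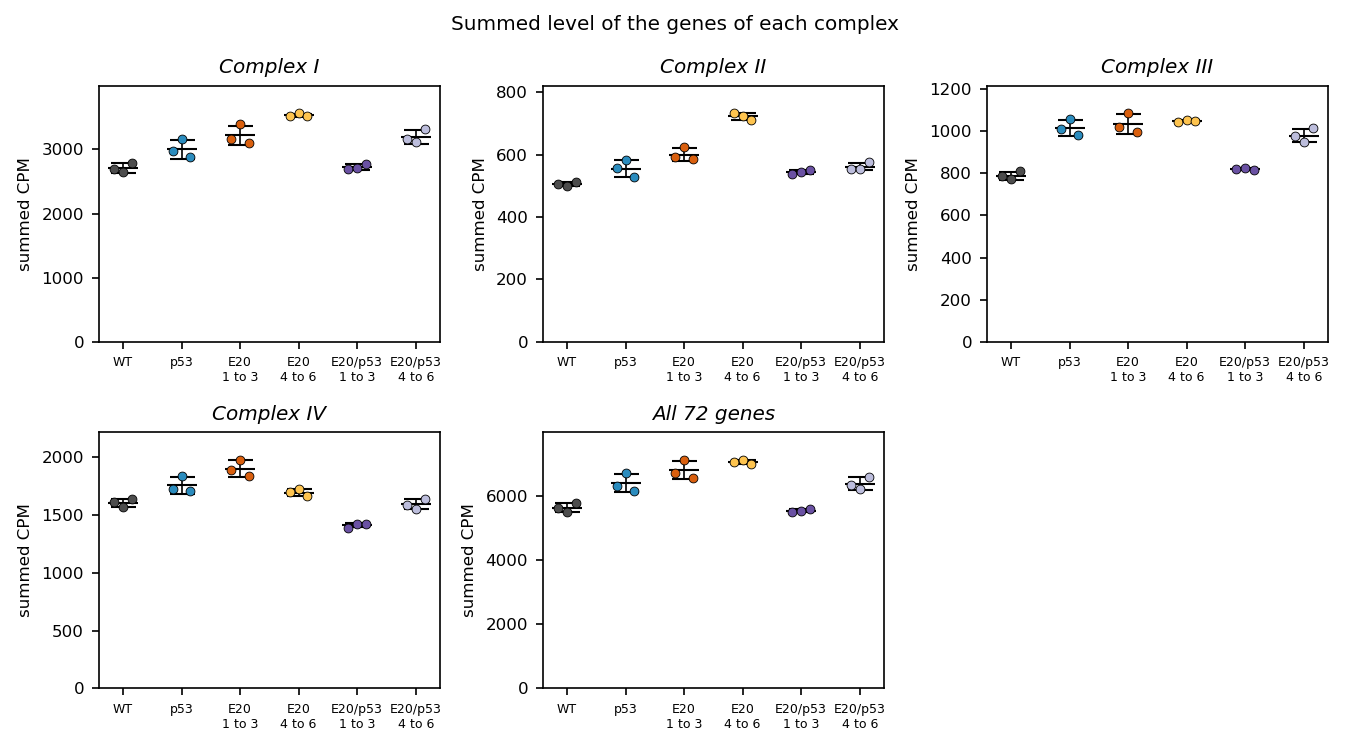
Summed level in CPM (vertical axes, from 0) of the genes of complexes I to IV and of all 72 genes in each library (points), by group and run, with bars for the mean and SD of 3 libraries. E20 4 to 6 stands apart in complex II, at 723 CPM, and E20/p53 1 to 3 is the lowest run in complex IV, at 1414 CPM.

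Against WT, most of the changed members were higher in the tongue groups. In p53, 34 members rose and 6 fell, where 29.3% of all genes tested were called higher and 24.9% lower. In E20, 38 rose and 4 fell (29% and 26.4% of all genes), and in E20/p53, 27 rose and 9 fell (26.5% and 21.6% of all genes). The median log2 change over the 66 tested members was 0.31 in p53, 0.35 in E20 and 0.19 in E20/p53, and over all genes it was 0.04, 0.04 and 0.05. A call is a p under 0.05 in limma, fitted on all 18 libraries and adjusted over all genes by the method of Benjamini and Hochberg (BH). All WT libraries lay below p53 for 48 members and above it for 8 (43.2% and 38.9% of all genes), below E20 for 40 and above for 4 (33.8% and 30.5%), and below E20/p53 for 27 and above for 8 (26.7% and 23.8%). The 3 comparisons share the WT libraries. Changes were small: 4, 4 and 3 members were called higher with a change of at least 2-fold, and 0 lower. Of all 15235 genes, 4439, 4154 and 3260 were called at that size in either direction. Without WT replicate 3 the members that fell in E20 numbered 2. With the run means of 3 libraries in place of libraries, WT and p53 keep 1 value each. Such a fit was run, but it has too few values to decide whether members changed, and no conclusion is drawn from it. The median in E20/p53 was 0.04 without E20/p53 4 to 6.

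**Figure D2:**
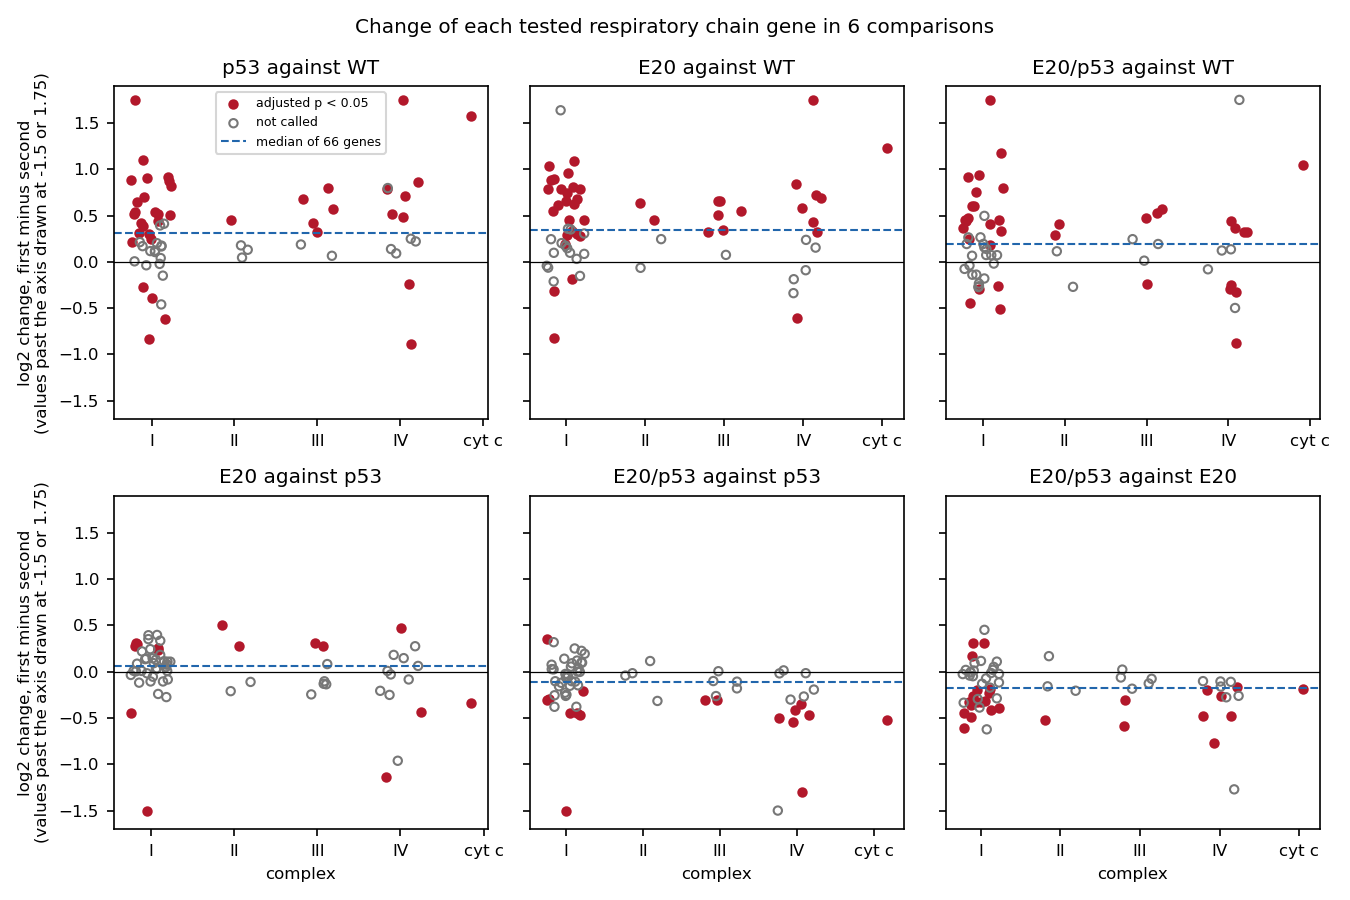
Log2 change (vertical axes, first group minus second, values beyond the axis drawn at its ends) of each of the 66 tested genes by complex in the 6 comparisons. Filled points passed limma at an adjusted p under 0.05, and the dashed line is the median of the 66 genes, 0.31, 0.35 and 0.19 in the upper panels and 0.06, -0.11 and -0.18 in the lower ones.

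Cytochrome c changed in every comparison. Cycs, the soluble carrier between complexes III and IV, was between 18.7 and 19.4 CPM in the WT libraries and at 55.8, 60.5 and 54.3 in p53. It ranged from 43.1 to 46.9 CPM in E20 (median 44.9) and from 37.0 to 44.6 in E20/p53 (median 37.9). Every tongue library thus stood far above WT, and p53 stood highest. Cycs rose by log2 1.57 in p53 (SE 0.08, limma BH-adjusted p = 2.6e-10), by 1.23 in E20 (SE 0.07, BH-adjusted p = 5.4e-10) and by 1.05 in E20/p53 (SE 0.07, BH-adjusted p = 4.8e-09). It fell against p53 in E20 (log2 -0.34, SE 0.07, BH-adjusted p = 0.0016) and in E20/p53 (log2 -0.52, SE 0.07, BH-adjusted p = 5.9e-05). Between E20/p53 and E20 the libraries overlapped, and the call at log2 -0.18 (BH-adjusted p = 0.017) was lost without E20 4 to 6 (BH-adjusted p = 0.11), without E20/p53 1 to 3 (0.13) and when libraries were scaled to the sum of reads (0.27). Cycs lies at chromosome 6, 50562563 to 50566538, and 25.9% of the 50-base words of its exons also occur in other annotated genes, so reads may be shared with pseudogene copies.

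In complex I the accessory subunits, which surround and assemble the catalytic arm, made up 34 of the 41 genes and carried most of the calls against WT. Counted as accessory were all Nduf genes outside the core. Among them are the processed pseudogenes Ndufa11b, Ndufb4c and Ndufs6b, and also Ndufb4b, Ndufa4 and Ndufa4l2. Of 34 accessory genes, 21 rose (61.8%) and 3 fell (8.82%) in p53, where 29.3% of all genes were called higher and 24.9% lower. In E20, 20 rose (58.8%) and 3 fell (8.82%), against 29% and 26.4% of all genes. In E20/p53, 16 rose (47.1%) and 3 fell (8.82%), against 26.5% and 21.6% of all genes. Of the 7 core genes, which bind NADH, flavin, iron-sulfur clusters and quinone, 0 rose and 1 fell in p53, 2 rose in E20, and 1 rose and 1 fell in E20/p53. Ndufa5, an accessory subunit, was at 35.9, 36.8 and 38.7 CPM in WT and at 65.2, 76.7 and 67.1 in p53. It ranged from 60.8 to 98.2 CPM in E20 (median 74.3) and from 52.9 to 73.3 in E20/p53 (median 61.0), so that no tongue library reached down to WT. The log2 change was 0.90 in p53 (SE 0.18, BH-adjusted p = 0.00047), 1.04 in E20 (SE 0.15, BH-adjusted p = 2.8e-05) and 0.75 in E20/p53 (SE 0.15, BH-adjusted p = 0.00072). Ndufb7 rose from 38.5 ± 3.15 CPM in WT to 72.6 ± 6.43 in p53 (log2 0.91, SE 0.14, BH-adjusted p = 6e-05).

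Ndufb4, a membrane-arm accessory subunit, was at 5.15, 3.45 and 5.41 CPM in WT and at 9.84, 11.6 and 8.51 in p53. It ranged from 8.72 to 10.9 CPM in E20 and from 8.21 to 13.0 in E20/p53, without overlap with WT. The log2 change was 1.10 in p53 (SE 0.20, BH-adjusted p = 0.00023), 1.09 in E20 (SE 0.17, BH-adjusted p = 5.7e-05) and 1.18 in E20/p53 (SE 0.17, BH-adjusted p = 3e-05). Ndufb4b and Ndufb4c, near copies of it, were called higher in the same comparisons, but 100% of the 50-base words of Ndufb4c occur in other genes, and the 3 rows may count shared reads. Ndufs1, the largest core subunit and a carrier of iron-sulfur clusters, was at 109, 125 and 117 CPM in WT and from 155 to 250 in E20 (median 201). It rose in E20 by log2 0.75 (SE 0.17, BH-adjusted p = 0.0017), which was 0.42 without E20 4 to 6.

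Complex II oxidises succinate and also belongs to the citric acid cycle. Sdha, its flavoprotein, was at 236, 238 and 239 CPM in WT, at 270, 276 and 261 in p53, and went from 305 to 349 in E20 (median 326) and from 258 to 326 in E20/p53 (median 293). It was called higher in E20 (log2 0.45, SE 0.09, BH-adjusted p = 0.00032) and in E20/p53 (log2 0.29, SE 0.09, BH-adjusted p = 0.01), but with libraries scaled to the sum of reads neither call held (BH-adjusted p = 0.057 and 0.12), nor with quantile normalization (0.091 and 0.10). In E20/p53 the change was 0.14 without E20/p53 1 to 3 and 0.45 without E20/p53 4 to 6. Sdhc, a membrane anchor, was at 122 ± 0.669 CPM in WT, at 149 ± 6.20 for E20 1 to 3 and at 242 ± 4.70 in E20 4 to 6. It rose in E20 by log2 0.64 (SE 0.16, BH-adjusted p = 0.0033), which was 0.29 without E20 4 to 6 and 0.99 without E20 1 to 3. Sdhd, the other anchor, was at 4.00 ± 0.454 CPM in WT and 5.48 ± 0.178 in p53 (log2 0.46, SE 0.15, BH-adjusted p = 0.015), and was also called higher in E20/p53 (log2 0.41, BH-adjusted p = 0.013). Both calls were lost without WT replicate 1 (BH-adjusted p = 0.079 and 0.094), and that in p53 with libraries scaled to the sum of reads (0.11). Sdhb, the iron-sulfur subunit, was called in no comparison, although E20/p53 1 to 3 stood at 90.2 ± 5.28 CPM and E20/p53 4 to 6 at 154 ± 1.15.

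In complex III calls against WT went mostly 1 way, with 5 of 7 tested members higher in p53 and 6 in E20, and none lower. In E20/p53, 3 rose and 1 fell. Of all genes, 29.3%, 29% and 26.5% were called higher in p53, E20 and E20/p53 against WT, and 24.9%, 26.4% and 21.6% lower. Uqcr10, a small subunit, was at 79.4, 76.0 and 86.7 CPM in WT and at 142, 144 and 134 in p53. It ranged from 115 to 144 CPM in E20 (median 125) and from 88.4 to 163 in E20/p53 (median 118). All tongue libraries stood above WT, but E20/p53 1 to 3 only narrowly. It rose by log2 0.79 in p53 (SE 0.20, BH-adjusted p = 0.0036), by 0.66 in E20 (SE 0.17, BH-adjusted p = 0.0045) and by 0.53 in E20/p53 (SE 0.17, BH-adjusted p = 0.02). In E20/p53 the call was lost without WT replicate 1 (BH-adjusted p = 0.061), without WT replicate 2 (0.076) and without E20/p53 4 to 6 (0.085), and the change was 0.90 without E20/p53 1 to 3. Uqcrq, a quinone-binding subunit, rose in p53 (log2 0.67, SE 0.19, BH-adjusted p = 0.0063), and Uqcrb in E20 (log2 0.65, SE 0.11, BH-adjusted p = 7.5e-05). Uqcrc2, a core protein, was at 175, 175 and 177 CPM in WT and from 137 to 159 in E20/p53, and fell there (log2 -0.24, SE 0.08, BH-adjusted p = 0.023). That call was lost without each WT library in turn (BH-adjusted p = 0.059 to 0.070) and without E20/p53 1 to 3 (0.11). Of its exons 26.6% lie opposite Pdzd9.

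In complex IV, calls went both ways. Of 13 tested members, 6 rose (46.2%) and 2 fell (15.4%) in p53, where 29.3% of all genes were called higher and 24.9% lower. In E20, 7 rose (53.8%) and 1 fell (7.69%), against 29% and 26.4% of all genes. In E20/p53, 4 rose (30.8%) and 4 fell (30.8%), against 26.5% and 21.6% of all genes. Cox8a, a small ubiquitous subunit, was at 125, 121 and 129 CPM in WT and at 228, 223 and 232 in p53. It ranged from 204 to 250 CPM in E20 (median 220) and from 142 to 181 in E20/p53 (median 162). The E20/p53 libraries thus lay between WT and the single mutants without overlap with either. The log2 change from WT was 0.87 in p53 (SE 0.10, BH-adjusted p = 3.4e-06), 0.84 in E20 (SE 0.09, BH-adjusted p = 7.4e-07) and 0.36 in E20/p53 (SE 0.09, BH-adjusted p = 0.0029), the last of which was 0.22 without E20/p53 4 to 6. Cox7a2, the ubiquitous isoform of subunit 7a, rose from 16.4 ± 0.635 CPM in WT to 28.5 ± 3.39 in p53 (log2 0.79, SE 0.10, BH-adjusted p = 1.2e-05). Cox6c rose in E20 from 112 ± 5.70 to 184 ± 11.7 CPM (log2 0.72, SE 0.13, BH-adjusted p = 0.00028). Cox6b1, which faces the intermembrane space, was at 195, 188 and 191 CPM in WT and from 145 to 164 in E20/p53, and fell there (log2 -0.32, SE 0.08, BH-adjusted p = 0.0036).

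A few members ran the other way and had their highest run mean in WT. Cox7a2l encodes a factor that joins complexes III and IV into supercomplexes. It was at 214, 206 and 209 CPM in WT and at 112, 120 and 108 in p53, and went from 121 to 160 in E20 (median 135) and from 94.2 to 142 in E20/p53 (median 114). All tongue libraries lay below WT. It fell by log2 0.89 in p53 (-0.89, SE 0.15, BH-adjusted p = 0.00014), by 0.61 in E20 (-0.61, SE 0.13, BH-adjusted p = 0.00085) and by 0.87 in E20/p53 (-0.87, SE 0.13, BH-adjusted p = 3.9e-05). Ndufa7, an accessory subunit of complex I, was at 163, 159 and 164 CPM in WT, at 93.7, 96.0 and 84.0 in p53, and went from 74.5 to 115 in E20 (median 91.1) and from 106 to 133 in E20/p53 (median 112). Its log2 change was -0.83 in p53 (SE 0.14, BH-adjusted p = 0.00014), -0.82 in E20 (SE 0.12, BH-adjusted p = 3.3e-05) and -0.51 in E20/p53 (SE 0.12, BH-adjusted p = 0.0026). Ndufv3, a subunit of the NADH-binding module, fell in p53 from 104 ± 3.94 to 67.5 ± 2.08 CPM (log2 -0.62, SE 0.13, BH-adjusted p = 0.00078). It was at 98.2 ± 4.24 CPM in E20/p53 1 to 3, overlapping WT, and was not called in E20/p53. Its call as lower in E20 was lost without WT replicate 1 (BH-adjusted p = 0.086) or 3 (0.067) and without E20 1 to 3 (0.22). Cox4i1, the ubiquitous isoform of subunit 4, was at 446, 437 and 448 CPM in WT and from 350 to 393 in E20/p53 (log2 -0.25, SE 0.07, BH-adjusted p = 0.0067). It was at 439 ± 7.84 CPM in E20 1 to 3, overlapping WT, and was not called in E20.

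**Figure D3:**
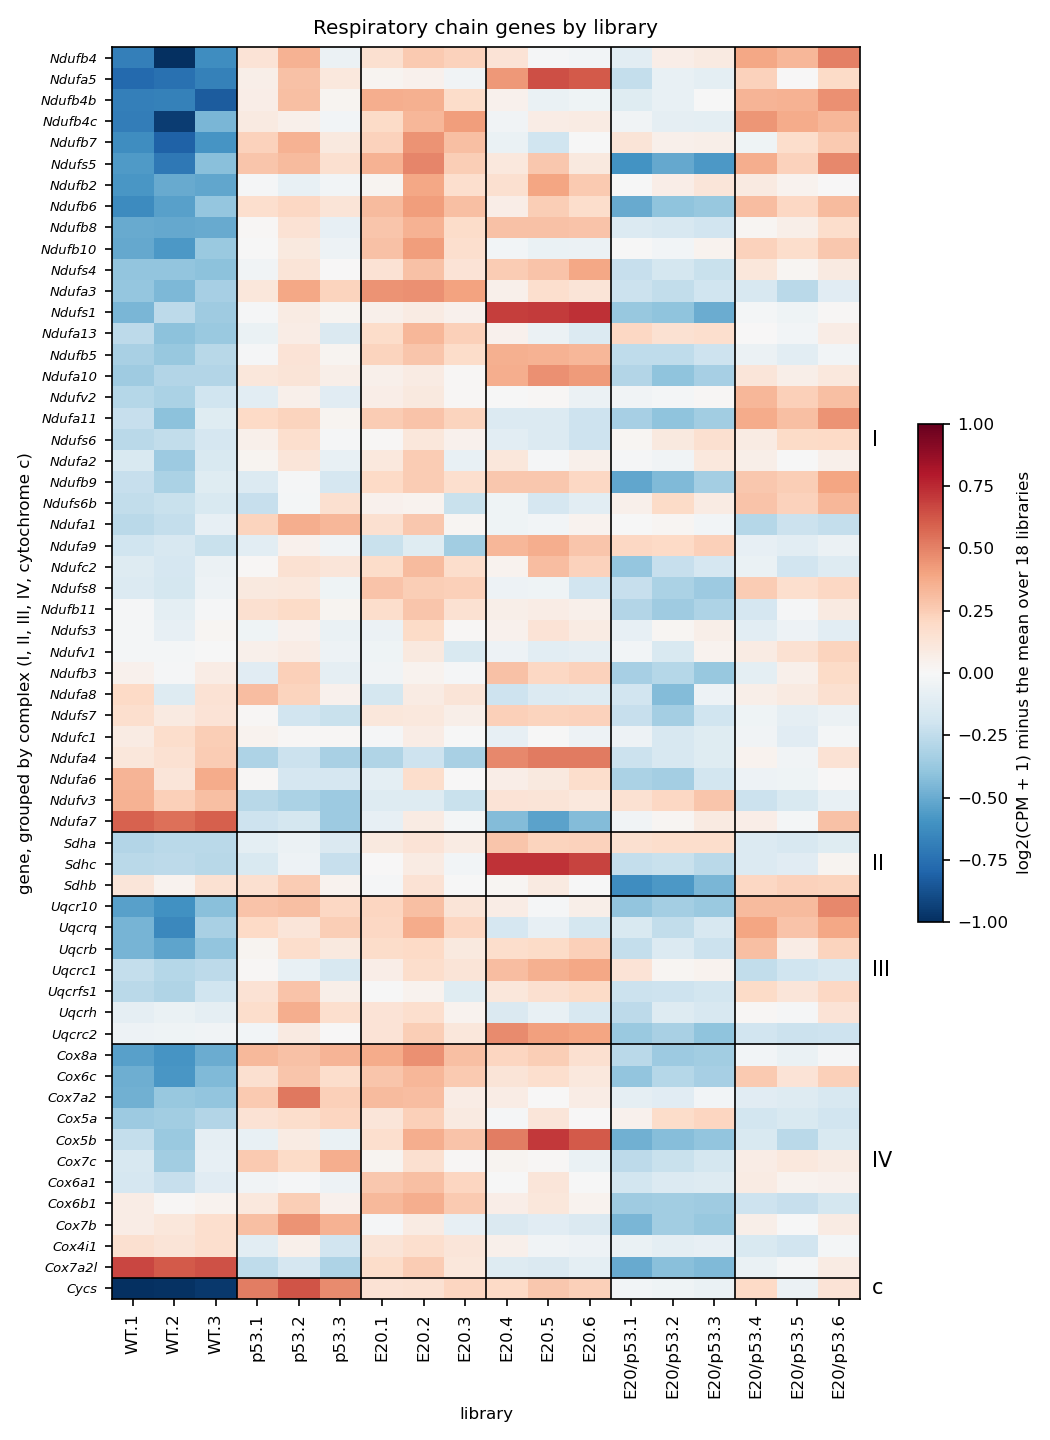
Log2 of CPM plus 1 minus the mean over 18 libraries (colour scale, clipped at 1 either way) for members with a mean of at least 5 CPM (rows, grouped by complex, c being cytochrome c) in each library (columns). The WT columns are low for most genes, with Cox7a2l and Ndufa7 as exceptions, and the columns of E20/p53 1 to 3 are the next lowest.

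Among the tongue groups fewer members changed. In E20 against p53, 10 members rose (15.2%) and 5 fell (7.58%), where 14.5% of all genes were called higher and 16.4% lower. 14 members lay above p53 in every library and 7 below (21.7% and 23.8% of all genes). The median log2 change was 0.06, and over all genes it was -0.01. Without p53 replicate 1, 2 or 3 the members that rose numbered 4, 5 and 2, and without p53 replicate 1 or 3 those that fell numbered 3. The gene with the largest rise at 5 CPM or more was Sdhc (log2 0.51, SE 0.16, BH-adjusted p = 0.026), a call that was lost without any of the p53 libraries (BH-adjusted p = 0.051 to 0.10), without E20 replicate 4 (0.0502) or 6 (0.051) and without E20 4 to 6 (0.14). It was 0.85 without E20 1 to 3. Cox5b, a structural subunit of complex IV, was at 39.7, 44.4 and 40.0 CPM in p53 and from 47.2 to 69.0 in E20 (median 57.0). It rose (log2 0.47, SE 0.12, BH-adjusted p = 0.0061), but not without E20 4 to 6 (BH-adjusted p = 0.056). Cox7b, on the X chromosome, was at 202 ± 10.7 CPM in p53 and fell in E20 (log2 -0.44, SE 0.11, BH-adjusted p = 0.0077), also not without E20 4 to 6 (BH-adjusted p = 0.061).

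In E20/p53 against p53, 16 members fell and 1 rose, where 12.9% of all genes were called in each direction. 4 members lay above p53 in every library and 16 below (15.9% and 16.6% of all genes). The median log2 change was -0.11 (all genes 0.02), and it was 0.01 without E20/p53 1 to 3. The number that fell was 34 without E20/p53 4 to 6, 10 without p53 replicate 1 and 9 without p53 replicate 2. The 1 rise, of Ndufv3 (log2 0.36, BH-adjusted p = 0.027), was lost without each p53 library (BH-adjusted p = 0.065 to 0.098) and without E20/p53 replicate 1, 2 or 3 (0.053 to 0.054) or all 3 (0.16). In complex IV 6 of 13 members fell and none rose. Cox8a fell from 228 ± 4.06 to 162 ± 18.3 CPM (log2 -0.50, SE 0.09, BH-adjusted p = 0.00062). Cox7b was at 193, 213 and 198 CPM in p53 and fell by log2 0.54 (-0.54, SE 0.11, BH-adjusted p = 0.0024), which was -0.32 without E20/p53 1 to 3. Cox6b1 was at 200, 221 and 191 CPM in p53 and fell as well (log2 -0.41, SE 0.08, BH-adjusted p = 0.0015). In complex I, Ndufa1, which lies on the X chromosome, and Ndufa3, both accessory subunits of the membrane arm, fell by log2 0.44 (-0.44, SE 0.09, BH-adjusted p = 0.0021) and 0.45 (-0.45, SE 0.09, BH-adjusted p = 0.0025).

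In E20/p53 against E20, 24 members fell (36.4%) and 3 rose (4.55%), where 19.6% of all genes were called lower and 23% higher. The median log2 change was -0.18 over members and 0.05 over all genes. 12 members lay below E20 in every library and 1 above (11.2% and 11.3% of all genes). Without E20/p53 1 to 3 the median was -0.07 and 9 members rose. Without E20/p53 4 to 6 the median was -0.29 and 38 members fell. With libraries scaled to the sum of reads 15 fell, with a median of -0.07, since that scaling moved the median of all genes to 0.16. The members that rose were Ndufa7, Ndufs6 and Ndufs6b. Each call was lost without E20 4 to 6 (BH-adjusted p = 0.44, 0.41 and 0.094) and without E20/p53 4 to 6 (0.072, 0.11 and 0.11), and those of Ndufa7 and Ndufs6 also without E20 replicate 4, 5 or 6 (BH-adjusted p = 0.051 to 0.052 and 0.075 to 0.092). That of Ndufs6 was further lost without E20/p53 replicate 2, 3, 5 or 6 (0.052 to 0.071), with median-ratio factors (0.070) and with no filter (0.057).

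Cox5b showed the largest fall among the members at 5 CPM or more. It ranged from 47.2 to 69.0 CPM in E20 (median 57.0) and from 29.7 to 37.6 in E20/p53 (median 33.1), without overlap. It fell by log2 0.77 (-0.77, SE 0.10, BH-adjusted p = 9.8e-06). Uqcrc2 ranged from 196 to 252 CPM in E20 and from 137 to 159 in E20/p53, also without overlap, and fell by log2 0.58 (-0.58, SE 0.07, BH-adjusted p = 4.3e-06). Cox6b1 fell from a range of 191 to 239 CPM to 145 to 164 (log2 -0.47, SE 0.07, BH-adjusted p = 2.8e-05), and Cox8a from 204 to 250 to 142 to 181 (log2 -0.47, SE 0.07, BH-adjusted p = 7.1e-05). In complex I, Ndufa3 fell from 58.2 to 77.6 CPM to 46.3 to 51.9 (log2 -0.49, SE 0.08, BH-adjusted p = 0.00011), which was -0.32 without E20 1 to 3, and Ndufs7, a core iron-sulfur subunit, fell by log2 0.33 (-0.33, SE 0.06, BH-adjusted p = 0.00061). Ndufs1 and Sdhc fell by log2 0.61 and 0.52 (-0.61 and -0.52, BH-adjusted p = 0.0027 and 0.0048). Without E20 4 to 6 neither was called (BH-adjusted p = 0.061 and 0.051). Without E20 1 to 3 the changes were -0.93 and -0.87, and that of Ndufs1 was -0.40 without E20/p53 1 to 3.

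**Figure D4:**
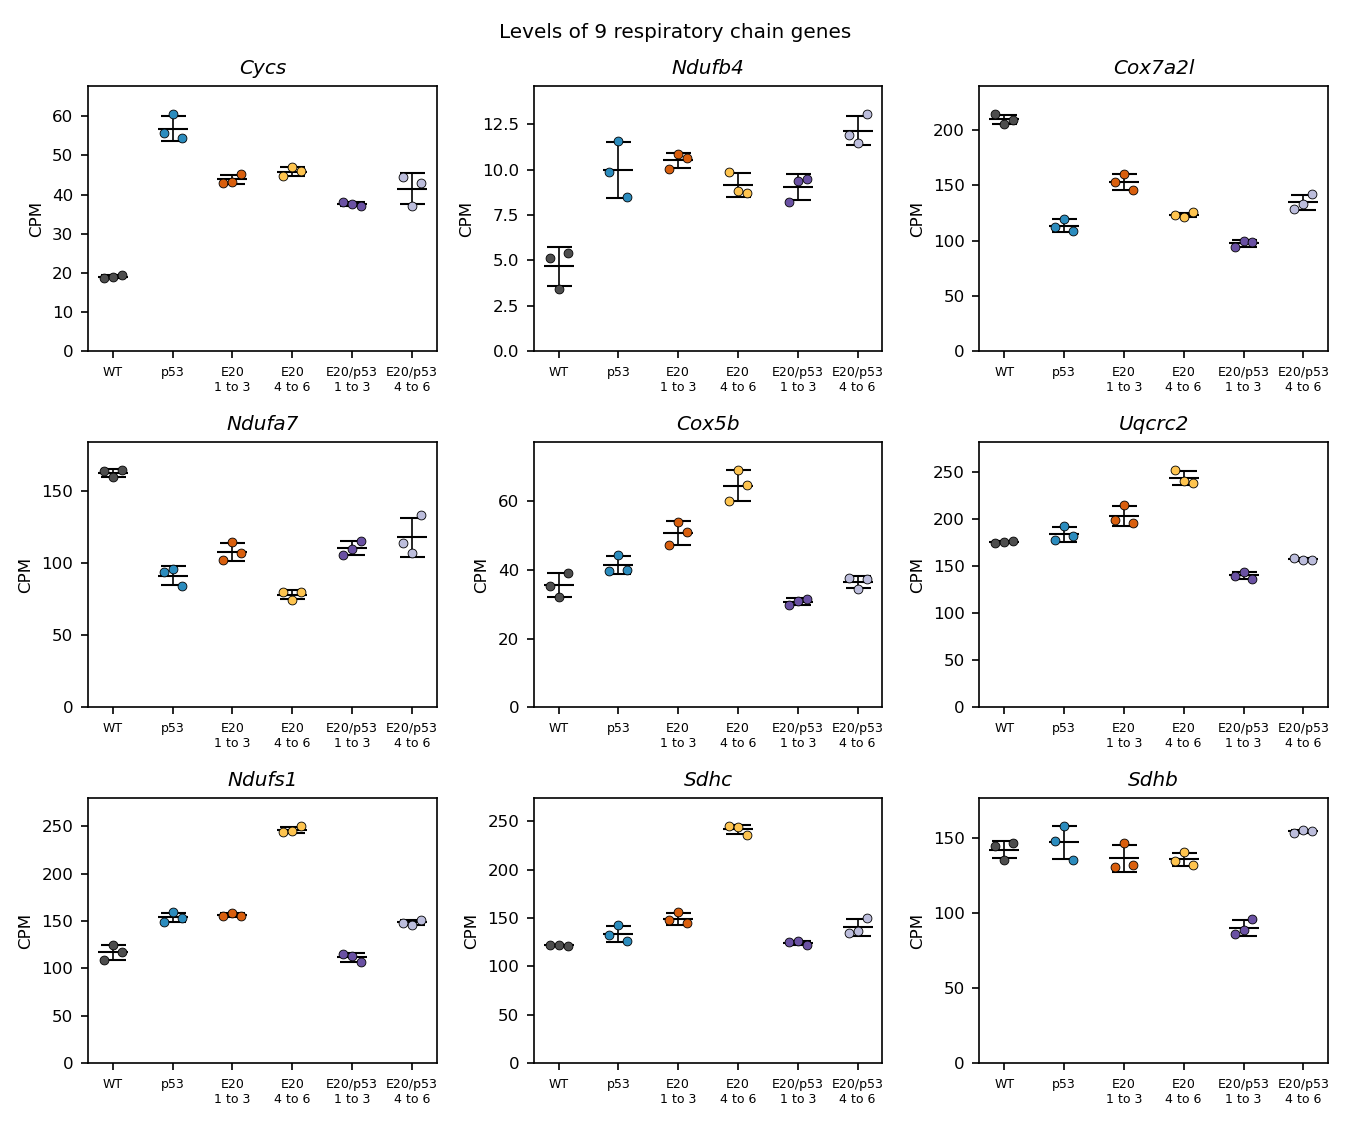
Level in CPM (vertical axes, from 0) of 9 genes in each library (points), by group and run, with bars for the mean and SD of 3 libraries. Cycs is lowest and Cox7a2l and Ndufa7 highest in WT, Ndufs1 and Sdhc stand at 246 and 242 CPM in E20 4 to 6, and Sdhb is lowest in E20/p53 1 to 3.

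The runs within a group differed for these genes. Over the 60 members with a mean of at least 5 CPM, the median absolute log2 difference between runs was 0.19 in E20 (0.28 over all 11350 genes at that level) and 0.28 in E20/p53 (0.49 over all genes). The range of the 6 run means, which spans all groups, had a median of 0.73 on the log2 scale, against 1.04 over all genes, and reached 1 in 10 members (16.7%, against 52.9% of all genes). WT was the lowest run for 31 members (51.7%, against 29.4% of all genes) and E20/p53 1 to 3 for 21 (35%, against 19.9%). E20/p53 1 to 3 was the highest run for 0 of the 60, where 19.5% of all genes were highest in it. E20/p53 4 to 6 stood above E20/p53 1 to 3 in 49 of the 60 members (81.7%, against 54.1% of all genes). The median difference was 0.24 (all genes 0.07). These run values hold on the deposited scale. As shares of all counted reads the members summed to 0.618% in E20/p53 1 to 3 and 0.615% in E20/p53 4 to 6. Ndufs5, a small accessory subunit of complex I, was at 10.4 ± 0.359 and 20.54 ± 1.87 CPM in these runs, and WT was at 10.3 ± 1.17.

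Within E20 the members went both ways: 24 stood higher in libraries 4 to 6 (40%, against 50.7% of all genes) and 36 lower. The median difference was -0.07 (all genes 0.008). Complex IV was lower in 4 to 6 for 10 of 11 members, Cox5b being the exception, at 50.8 ± 3.45 CPM in 1 to 3 and 64.6 ± 4.49 in 4 to 6. A few genes of complexes I and II stood far higher in 4 to 6. Ndufa4 was at 187 ± 8.38 and 322 ± 4.94 CPM, Ndufs1 at 157 ± 2.09 and 246 ± 3.20, and Sdhc at 149 ± 6.20 and 242 ± 4.70. 9 tested members were called in no comparison, among them Ndufa4 and Sdhb, whose runs lay far apart. Others of the 9 had close run means: Ndufs3, a core subunit, had run means from 55.4 ± 1.15 to 62.8 ± 2.10 CPM, and Ndufv1, which binds NADH, from 116 ± 2.20 to 136 ± 6.61. Only Cycs and Ndufb5 were called in all 6 comparisons. The shares of all genes called in none or in all 6 were not counted, so neither number is read as particular to the members.

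Several subunits have a second isoform for muscle, testis or low oxygen, and these were low in all libraries. Cox6a2, the heart and muscle isoform of subunit 6a, held 16, 25 and 23 reads in the p53 libraries, 6 to 19 in E20, 0 to 1 in WT and E20/p53 1 to 3, and 11 to 19 in E20/p53 4 to 6. Per kilobase it made up 0.628% ± 0.125 of the Cox6a1 and Cox6a2 total in p53. It was called higher than in WT in p53 (BH-adjusted p = 0.0017) and in E20 (BH-adjusted p = 0.0035). Cox8b, another muscle isoform, held 10 to 16 reads in p53 and at most 3 elsewhere, and Cox7a1 made up 7.01% ± 1.45 of the subunit 7a total in p53 and 6.88% ± 1.92 in WT. Cox7a1 was called lower than in p53 in E20 (log2 -1.14, BH-adjusted p = 0.018) and E20/p53 (log2 -1.30, BH-adjusted p = 0.011), but not without p53 replicate 1 (BH-adjusted p = 0.078 and 0.055), nor in E20 without p53 replicate 3 (0.055), without E20 1 to 3 (0.075) or with quantile normalization (log2 -0.75, 0.16). The 10 skeletal muscle markers summed to 1472 ± 37.1 CPM in p53, 328 ± 11.3 in E20/p53 4 to 6, 159 ± 2.18 and 55.5 ± 3.02 in the E20 runs, 11.5 ± 0.765 in WT and 5.03 ± 0.247 in E20/p53 1 to 3, and their part in these isoforms was not tested. All 10 markers were called higher in p53 than in WT, Myod1 and Myog being at 0 in WT and E20/p53 1 to 3.

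Ndufa4l2, a paralog of Ndufa4 known to be induced in low oxygen, held 26, 30 and 31 reads in p53, 13 to 19 in E20/p53 1 to 3, 0 to 7 in the E20 runs and E20/p53 4 to 6, and 0 to 2 in WT. It was called higher in p53 than in WT (BH-adjusted p = 0.00073) and lower in E20 than in p53 (BH-adjusted p = 0.012). It was also called higher in E20/p53 than in WT and lower in E20/p53 than in p53. Among other settings, the former was lost without E20/p53 1 to 3 (BH-adjusted p = 0.369). The latter was lost without any of the p53 libraries (BH-adjusted p = 0.0945 to 0.109). Fitted changes of such low genes depend on the added read, and none is given for Ndufa4l2. Those of Cox7a1 above, which held 4 to 24 reads a library, carry the same limit. Of the 11 hypoxia targets, 4 rose (36.4%) and 1 fell (9.09%) in p53 against WT, where 29.3% of all genes were called higher and 24.9% lower. Those that rose were Ldha, Pgk1, Slc2a1 and Higd1a, and Car9 fell. Adm was not called there, at 70.2 ± 4.57 CPM in p53 against 34.7 ± 2.71 in WT, and was at 17.5 ± 1.36 in E20/p53 1 to 3. Pdk1, which limits pyruvate entry into the citric acid cycle, was at 380 ± 3.96 CPM in E20/p53 1 to 3 and 118 ± 2.56 in p53. In E20 against WT, 2 of the 11 targets rose (18.2%) and 2 fell (18.2%), against 29% and 26.4% of all genes. In E20/p53 against WT, 5 rose (45.5%) and 2 fell (18.2%), against 26.5% and 21.6% of all genes. The part of these targets in Ndufa4l2 was not tested. Cox4i2, the isoform of subunit 4 used at low oxygen, held 5 to 13 reads in WT and p53 and 0 to 4 elsewhere.

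**Figure D5:**
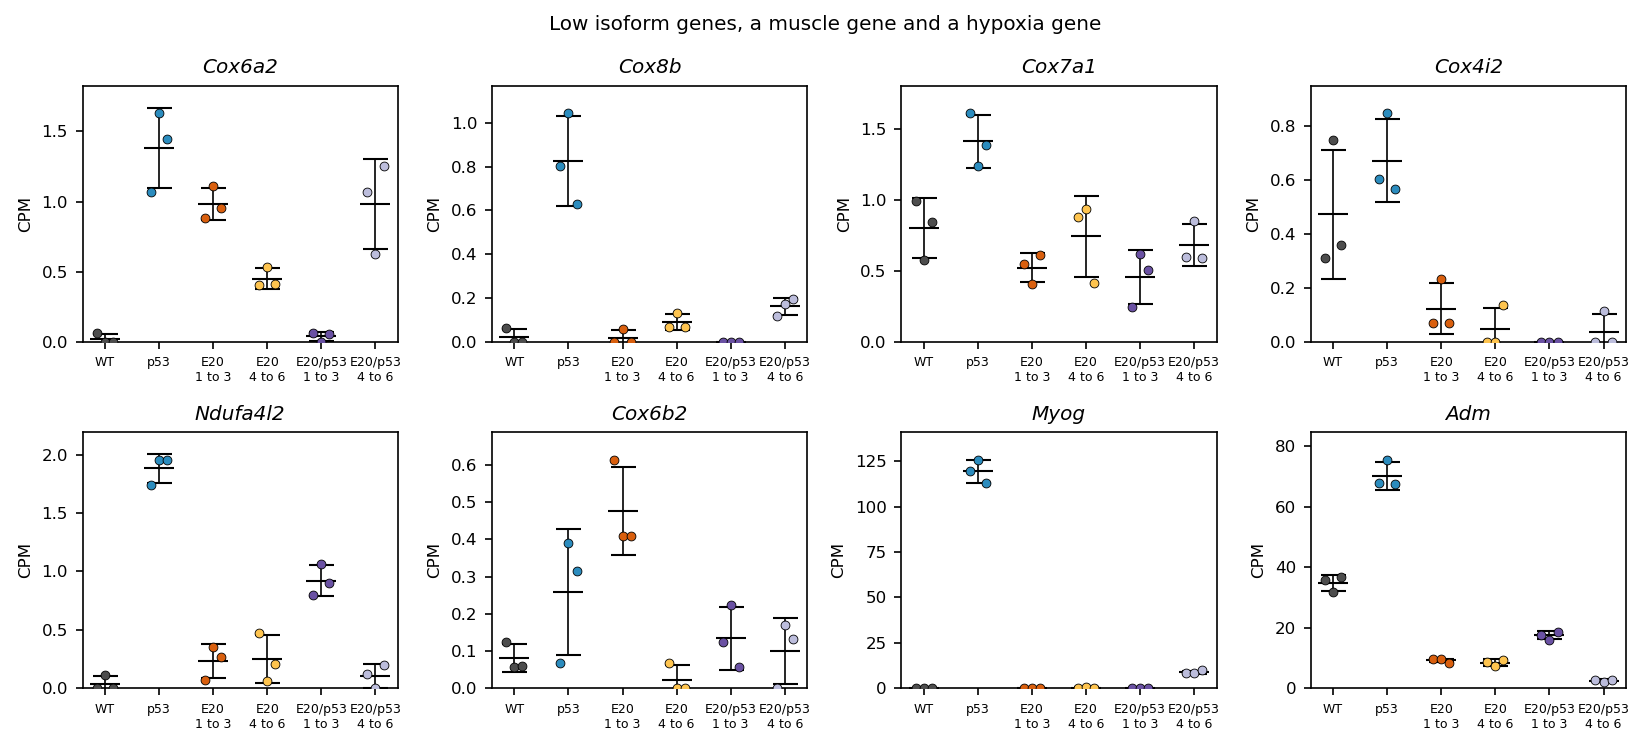
Level in CPM (vertical axes, from 0) of 6 isoform genes, the muscle regulator Myog and the hypoxia target Adm in each library (points), by group and run, with bars for the mean and SD of 3 libraries. Cox6a2, Cox8b, Cox7a1 and Ndufa4l2 are highest in p53, where Myog is at 119 CPM and Adm at 70.2 CPM. Adm was not called in p53 against WT.

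The rest of the oxidative phosphorylation machinery was read from lists of related genes. Of 17 genes of complex V, the ATP synthase, 11 rose (64.7%) and 0 fell in p53 against WT, 12 rose (70.6%) and 0 fell in E20, and 9 rose (52.9%) and 1 fell in E20/p53, where 29.3%, 29% and 26.5% of all genes rose, with median log2 changes of 0.47, 0.52 and 0.30. Atp5j, a stalk subunit, was at 75.2 ± 2.62 CPM in WT, and its rise was called in p53 (log2 1.11, SE 0.12, BH-adjusted p = 1.2e-06), in E20 (log2 1.07, BH-adjusted p = 2.5e-07) and E20/p53 (log2 0.95, BH-adjusted p = 1.2e-06). Against E20, 0 genes of complex V rose and 5 fell (29.4%) in E20/p53, where 23% of all genes were called higher and 19.6% lower. Of 41 tested assembly factors, 18 rose (43.9%) and 4 fell (9.76%) in p53. In E20, 22 rose (53.7%) and 2 fell (4.88%), and in E20/p53, 22 rose (53.7%) and 3 fell (7.32%). Of all genes, 24.9%, 26.4% and 21.6% fell in these comparisons. Cox10, which makes heme for complex IV, rose in each (log2 1.13, 1.05 and 1.16, BH-adjusted p = 9.8e-06, 3.4e-06 and 1.4e-06), and Surf1, which helps to build the same complex, fell in p53 (log2 -0.70, BH-adjusted p = 1.2e-05). Against E20, 6 assembly factors rose in E20/p53 (14.6%) and 10 fell (24.4%), where 23% of all genes were called higher and 19.6% lower, with Uqcc2, an assembly factor of complex III, higher (log2 0.54, BH-adjusted p = 5e-05) and Cox16 of complex IV lower (log2 -0.56, BH-adjusted p = 5e-06).

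Of 13 regulators of mitochondrial genes, 7 rose (53.8%) and 2 fell (15.4%) in p53 against WT. In E20, 7 rose (53.8%) and 4 fell (30.8%), and in E20/p53, 7 rose (53.8%) and 2 fell (15.4%). Of all genes, 29.3%, 29% and 26.5% were called higher in these comparisons, and 24.9%, 26.4% and 21.6% lower, so the share that fell in E20 was near that of all genes. Ppargc1a, the coactivator PGC-1alpha, ran against the chain genes. It was at 40.1 ± 2.15 CPM in WT, 3.14 ± 0.116 in p53, 1.62 ± 0.343 and 2.37 ± 0.263 for the E20 runs, 20.41 ± 1.10 in E20/p53 1 to 3 and 1.70 ± 0.156 in E20/p53 4 to 6, and it fell in E20 (log2 -4.32, SE 0.78, BH-adjusted p = 0.00021). It is named here because of its values. Its relative Ppargc1b was at 1.63 ± 0.290 CPM in WT, and its rise was called in p53 (log2 2.06, SE 0.38, BH-adjusted p = 0.00028), in E20 (log2 1.98, BH-adjusted p = 8.6e-05), where it was 1.32 without E20 4 to 6, and in E20/p53 (log2 1.57, BH-adjusted p = 0.00086). Gabpa, a subunit of the ETS factor GABP, rose in p53 (log2 0.71, BH-adjusted p = 0.00051). In E20/p53 against E20, Myc and Nrf1 rose (log2 0.83 and 0.28, BH-adjusted p = 3.2e-07 and 0.00034), while Esrra, a nuclear receptor that works with these coactivators, fell (log2 -0.37, BH-adjusted p = 0.00069).

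Some features of the libraries and of read assignment bear on single members. 13 members share over 10% of their 50-base words with other annotated genes, and Ndufa11b, Ndufb4c and Ndufs6b are annotated as processed pseudogenes. The kit marks strand, but no source used here says whether counting used it, so reads of Cox5a, Ndufb6, Ndufa13 and Uqcrc2 may include those of genes on the other strand. 3 members, Ndufa1, Ndufb11 and Cox7b, are X-linked. Xist, which silences 1 X chromosome in females, had means of 893 and 1303 CPM in the E20 runs and at most 0.826 elsewhere, and its part in the values of these 3 genes was not tested. Libraries of 1 run varied by 1.62 to 3.16 times what counting error gives, and no pair of libraries agreed within sampling noise. The value of 3.16 is that of p53.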

How the data were processed

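RNA sequencing of 18 mouse libraries in 4 groups gave the values used here. Libraries were made with a TruSeq Stranded mRNA LT kit, per the labels. The submitters' processing notes name bcl2fastq 1.8.4 for demultiplexing, Trimmomatic for trimming, featureCounts for counting and the build mm10, but no aligner or annotation. The authors deposited log2 values, in which 1 was added to each read count before dividing by a scaled depth: 100% of them gave back whole reads within 0.001. That depth was 0.939 to 1.12 times the summed reads of a library, which were 14592044 to 18176060.

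The deposited log2 values were fitted with limma 3.58.1 in R 4.3.3, with the mean-variance trend, 1 mean per group and 14 residual degrees of freedom, and p-values were adjusted by Benjamini-Hochberg over the 15235 genes tested. A count test was not used, as the deposited unit is log2. Genes needed 0.635 CPM, which is 10 reads at the median depth, in at least 3 libraries, and 15 reads or more in sum. The script was tested on simulated data. Alternatives were other scalings, filters, a pseudocount, the 2 compared groups alone, a replicate block, run means, a 2-fold minimum and libraries left out; scaling to the sum of reads was added after seeing the data.

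The genes, the lists and the tests were chosen with earlier results of these data known. Full statistics go to Cycs, the 4 Sdh genes, the isoform pairs and, per comparison, up to 2 genes called higher and 2 called lower in each of complexes I, III and IV by size of change at 5 CPM or more, and to up to 3 genes of each other list by adjusted p. Other genes, among them Cox8a, Cox7a2, Ndufs5 and Ppargc1a where the rule does not reach them, were named after their values were seen. 1 member is counted but its own values are not reported here, and it has no row in the heat map. Positions come from GENCODE M21 and promoters from RefSeq. Read counts near 0 carry counting error, and without molecular identifiers a read is not an independent molecule.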

Additional observations from a re-analysis of the deposited data

Results flagged for a closer look

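Ndufa7 in library 6 of E20/p53 stood apart from the other 5 libraries of its group. It was at 133.0 CPM, and the nearest other library was at 115 CPM, a gap of 0.649 of the group's whole range. 86 groups of values were looked at in this way, and chance flags about 1 in 20 such groups.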

How the results depend on the processing

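Numbers of members called are given as higher and lower. With run means in place of libraries, WT and p53 keep 1 value each, and that fit has too few values to decide whether members changed. With a 2-fold minimum the numbers against WT were 4 and 0 in p53, 4 and 0 in E20, and 3 and 0 in E20/p53. They were 0 and 2 in E20 against p53, 0 and 2 in E20/p53 against p53, and 0 and 0 in E20/p53 against E20. Of all 15235 genes, 4439, 4154, 3260, 1876, 1581 and 2281 were called at that size in the 6 comparisons, in the same order. In E20 against WT, 7 were lower with quantile normalization and 9 with scaling to the sum of reads. In E20 against p53, 16 and 10 were called without E20 1 to 3, 3 were lower without E20 4 to 6, and 3 were lower at a mean of 5 CPM or more. In E20/p53 against p53, 4 were higher with scaling to the sum of reads, 3 without E20/p53 1 to 3 and 2 without E20/p53 libraries 4 to 6, and 10 were lower with the 2 compared groups alone and 34 without E20/p53 4 to 6. Between E20/p53 and E20, 1 was higher with the 2 compared groups alone, 5 were higher and 15 lower with scaling to the sum of reads, 9 were higher without E20/p53 1 to 3, and 38 were lower without E20/p53 4 to 6. Same-numbered libraries of different groups had correlations of their deviations between -0.05 and 0.07, and were not treated as pairs. The numbers do mark the runs within E20 and E20/p53. With a replicate block all the same, 14 members were lower in E20/p53 against WT, and 2 were higher and 25 lower in E20/p53 against p53.

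With 1 library left out, the higher numbers ranged from 29 to 34, 33 to 38 and 21 to 29 in p53, E20 and E20/p53 against WT, and the lower ones from 4 to 6, 2 to 4 and 7 to 9. They ranged from 2 to 12 and 3 to 7 in E20 against p53, 0 to 1 and 9 to 17 in E20/p53 against p53, and 1 to 3 and 19 to 30 in E20/p53 against E20. The median change was 0.17 in p53 and 0.18 in E20 against WT with scaling to the sum of reads. That scaling moved the median of all genes to -0.10 and -0.13, from 0.04 and 0.04. In E20/p53 against p53 the median change of the members was -0.30 without E20/p53 4 to 6. Of 123 gene results, 25 lost their call with some 1 library left out and 16 under other scalings, filters or the pseudocount, and of the 99 that could be fitted with 3 libraries left out 29 did; 0 reversed. The causes were not tested. Depth limits the isoform genes, which held few reads, and 6 members were too low to test.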
